A study of Mus musculus with 6 samples.

Results

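RNA polymerase subunits and the factors that load RNA polymerase III were followed in ID8 cells with and without Trp53. The genes were taken from the count table by symbol: every Polr1, Polr2 or Polr3 gene with a letter suffix, Gtf3c1 to Gtf3c6, and Gtf3a, Brf1, Brf2, Bdp1 and Maf1. This gave 39 of 41327 genes. All 39 passed the filter on low counts, with 0 left untested. By role they comprised 3 subunits of Pol I only, 8 of Pol II only, 10 of Pol III only, 7 shared between enzymes, 6 subunits of TFIIIC, and 5 genes for TFIIIB, TFIIIA and Maf1.

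ID8 is a line made from ovarian surface epithelium of C57BL/6 mice. The libraries compared were 3 of genotype Trp53-/- (Trp53_KO) and 3 of genotype Trp53+/+ (Trp53_WT). Both groups were labelled as immortalized, untreated cells in asynchronous growth, and no age or time was given. Trp53 encodes the tumour suppressor p53; the labels do not say which part of the gene was altered, whether a genotype is a single clone or a pool of cells, or whether replicates were separate cultures. What the p-values measure is thus library-to-library spread, part of which may come from handling alone.

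Transcription in the animal nucleus is divided between several RNA polymerases. Pol I makes the large ribosomal RNA precursor, Pol II makes messenger RNA, and Pol III makes 5S rRNA, tRNA, 7SK, U6 and, in rodents, RNA of B1 and B2 elements, which are short interspersed repeats with an internal Pol III promoter. TFIIIC binds that internal promoter through its A box and B box, TFIIIA recognises the 5S gene, and TFIIIB (Brf1 or Brf2 with Bdp1 and TBP) then recruits Pol III. Maf1 is a repressor of Pol III, and p53 itself is described in mammalian cells as restraining Pol I and Pol III through their initiation factors.

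The libraries held between 15319956 and 19954170 counts on genes. Trp53 was at 29.6, 25.5 and 25.3 CPM, the count scaled to the library's total, in the Trp53_KO libraries and at 110, 97.3 and 105 CPM in the Trp53_WT ones. Its log2 fold change was -1.95 with an SE of 0.09 (edgeR quasi-likelihood test; p adjusted by Benjamini-Hochberg, 2.7e-07). Of the 9 epithelial markers, all were tested, 5 rose (55.6%) and 3 fell (33.3%), against 14.1% and 16.1% of all tested genes. Their summed levels were 3369 to 3665 CPM in Trp53_KO and 3265 to 3356 CPM in Trp53_WT. The sums do not show the single markers, whose log2 fold changes ran from -0.31 (Krt8) to 8.04 (Lrrn4). Of the 5 immune markers 4 were at 0 in every library, and the sums stayed at or below 0.297 CPM. The fibroblast markers, 3 of 4 of them tested and all 3 higher, summed to between 229 and 251 CPM in Trp53_KO and between 101 and 108.4 CPM in Trp53_WT, with 1 at 0 throughout. Granulosa and theca markers, 2 of 5 tested and both higher, summed to between 23.7 and 26.2 CPM in Trp53_KO and between 3.58 and 4.72 CPM in Trp53_WT, with 2 at 0. The endothelial markers, 1 of 4 tested and higher, summed to between 1.65 and 2.35 CPM in Trp53_KO and between 0.148 and 0.203 CPM in Trp53_WT, with 2 at 0. Their part in the results was not tested. In bulk RNA, fewer cells of a type and less RNA per cell cannot be told apart.

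Trp53_WT replicate 1 stood apart from the other libraries. Relative to the mean of the other libraries of its group, 161 genes in it were more than 1 log2 unit higher and 7 more than 1 log2 unit lower. In the other 5 libraries, no gene was that much higher and 0 to 12 genes were that much lower. The gene with the highest deviation of all 13651 tested was Polr2a, ahead of Ppp2r2a. Results are therefore also given without that library.

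Across the 39 genes, 9 rose and 1 fell in Trp53_KO at an adjusted p under 0.05, and 29 did not pass the test. That is 23.1% higher and 2.56% lower, against 14.1% higher and 16.1% lower among all genes tested. The log2 fold change was above 0 for 30 of the 39 and for 6508 of all 13651 tested genes. The median was 0.14 for the 39 and -0.02 for all tested genes. Without Trp53_WT replicate 1, 12 rose and 1 fell (30.8% and 2.56%), against 17.4% higher and 18.5% lower of all genes in that fit. The median log2 fold change of the 39 was then smaller, at 0.11, with 29 above 0. For all genes in that fit it was -0.002, with 6907 of 13894 above 0. In Trp53_WT replicate 1 itself the median deviation from the other libraries of its group was -0.10 for the 39 and -0.002 for all genes. Fewer rose when another library was left out: 5 without Trp53_WT replicate 2, 4 without Trp53_KO replicate 1 and 5 without Trp53_KO replicate 3, with Gtf3a lower each time. In the same fits, in that order, 1541 of 13842, 1388 of 13846 and 1530 of 13844 tested genes were higher. The members that rose were thus near the share of all genes there. The genes that rose included Polr1e of Pol I, Polr2d, Polr2g, Polr2i and Polr2m of Pol II, Polr3f of Pol III, and the shared Polr2h and Polr2k. The gene that fell was Gtf3a, which encodes TFIIIA.

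**Figure D1:**
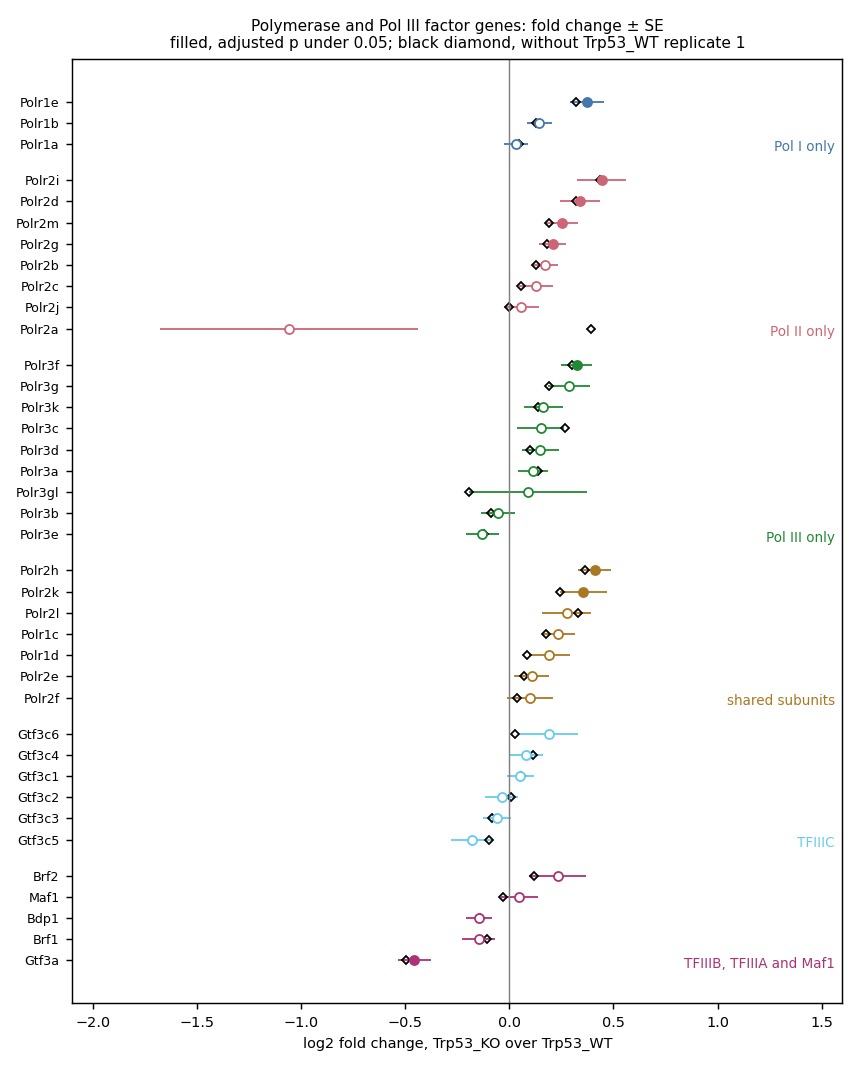
Log2 fold change of Trp53_KO over Trp53_WT (horizontal axis) for the polymerase and Pol III factor genes described, grouped by the enzyme or factor it belongs to, with bars of 1 SE to each side; filled points passed an adjusted p under 0.05 (edgeR quasi-likelihood test) and black diamonds leave out Trp53_WT replicate 1. The genes plotted as having risen lie between 0.21 and 0.44, Gtf3a lies at -0.46, and Polr2a has the widest bar, with an SE of 0.62, and its diamond lies at 0.39.

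The CPM of the groups did not overlap for 14 genes that were higher in Trp53_KO and for 4 that were lower (Gtf3a, Brf1, Bdp1 and Polr3e); the groups of the other 21 overlapped. Among all tested genes the groups did not overlap for 21.8% on the higher side and 24.2% on the lower side. Changes of the called genes named here were modest: Polr2i stood at 1.36 times the Trp53_WT level and Gtf3a at 0.729 times it.

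Of the 10 Pol III-only subunits selected by symbol, 2 rose (20%, near the 14.1% of all tested genes), Polr3f among them, and the other 8 did not pass the test. The median log2 fold change of the 10 was 0.15, and the lowest, that of Polr3e, was -0.13. Without Trp53_WT replicate 1, 3 rose (30.0%, against 17.4% of all genes in that fit), among them Polr3c at 0.27 (edgeR, adjusted p = 0.028), against 0.15 (adjusted p = 0.36) with all libraries.

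Polr3f encodes a subunit of the trimer that helps Pol III open its promoter and lies on chromosome 2 (144527718 to 144541995, plus strand). It was at 60.7, 65.7 and 59.99 CPM in Trp53_KO and at 48.2, 52.2 and 48.5 CPM in Trp53_WT. Each Trp53_KO library exceeded each Trp53_WT library. The log2 fold change was 0.32 (SE 0.08; edgeR, adjusted p = 0.0098), and 0.30 without Trp53_WT replicate 1. The largest subunit, Polr3a, which holds part of the catalytic centre, was at 77.3, 70.1 and 70.6 CPM in Trp53_KO and at 69.7, 67.0 and 65.1 CPM in Trp53_WT. Its groups did not overlap, but the difference of 0.11 (SE 0.07) on the log2 scale did not pass the test (edgeR, adjusted p = 0.28).

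Polr3g and Polr3gl encode alternative forms of the same Pol III subunit, of which Polr3g is known for high expression in stem cells and tumours. Polr3g was at 25.7, 26.6 and 24.4 CPM in Trp53_KO and at 17.96, 22.0 and 22.8 CPM in Trp53_WT. The groups did not overlap, with a log2 fold change of 0.29 (SE 0.10; edgeR, adjusted p = 0.062), and 0.19 (adjusted p = 0.10) without Trp53_WT replicate 1. Polr3gl was at 3.57, 4.41 and 5.21 CPM in Trp53_KO and at 2.09, 5.09 and 4.93 CPM in Trp53_WT, where replicate 1 was the lowest of all 6 libraries. Its log2 fold change was 0.09 (SE 0.28; edgeR, adjusted p = 0.84), and -0.19 without that library.

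The balance between both forms was also read within each library. The log2 ratio of Polr3g to Polr3gl counts was 2.84, 2.59 and 2.22 in Trp53_KO and 3.08, 2.10 and 2.20 in Trp53_WT. Means were 2.55 ± 0.31 in Trp53_KO and 2.46 ± 0.54 in Trp53_WT (SD, n = 3 each), and the difference of 0.087 had p = 0.8 in an exact two-sided permutation test, in which 3 libraries against 3 cannot go below 0.1. Per kilobase of exon, Polr3g was 2.90, 2.44 and 1.89 times Polr3gl in Trp53_KO and 3.43, 1.74 and 1.87 times it in Trp53_WT. Polr3g thus exceeded Polr3gl in all 6 libraries.

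Levels of the Pol III subunits, as CPM per kilobase of exon, covered a wide range. Polr3k was the highest, at a mean of 18.2 in Trp53_KO and 16.3 in Trp53_WT, followed by Polr3d at 15.2 in Trp53_KO and 13.7 in Trp53_WT. Polr3gl was the lowest, at 2.75 in Trp53_KO and 2.53 in Trp53_WT. Polr3a stood between them, at 12.5 in Trp53_KO and 11.5 in Trp53_WT.

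**Figure D2:**
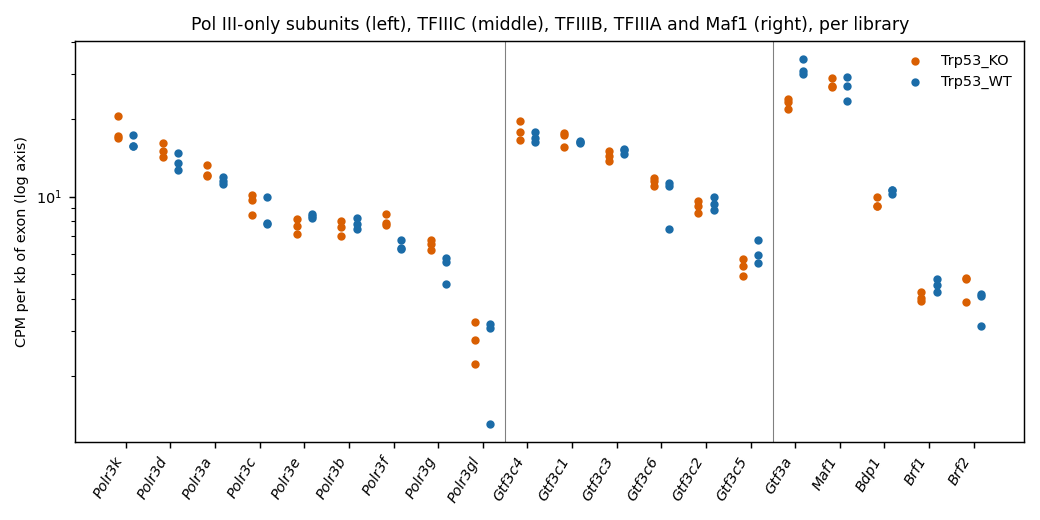
Level of Pol III subunits and Pol III factors in CPM per kilobase of exon (log axis), with a point per library, Trp53_KO left of Trp53_WT. Gtf3a averaged 23.04 in Trp53_KO and 31.6 in Trp53_WT, Maf1 averaged 27.5 in Trp53_KO and 26.5 in Trp53_WT, and Polr3gl had the lowest values of the set.

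Of the Pol II subunits, Polr2d, Polr2g, Polr2i and Polr2m rose (50%, against 14.1% of all tested genes) and the other 4 did not pass the test. The median log2 fold change over the 8 was 0.19. Polr2i, which resembles the elongation factor TFIIS, was at 17.5, 13.8 and 17.7 CPM in Trp53_KO and at 11.9, 11.4 and 12.8 CPM in Trp53_WT. Its log2 fold change was 0.44 (SE 0.12; edgeR, adjusted p = 0.0185). Polr2d and Polr2g form the stalk of Pol II. Polr2d was at 29.6, 34.4 and 27.5 CPM in Trp53_KO and at 23.6, 23.7 and 24.9 CPM in Trp53_WT, a log2 fold change of 0.34 (SE 0.10; edgeR, adjusted p = 0.0253). Polr2g was at 79.3, 79.0 and 79.9 CPM in Trp53_KO and at 66.3, 70.2 and 69.6 CPM in Trp53_WT, a log2 fold change of 0.21 (SE 0.07; edgeR, adjusted p = 0.0375). Both partners were higher in each Trp53_KO library than in any Trp53_WT library.

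Polr2m encodes Gdown1, a protein that associates with Pol II and is not part of its core. It was at 179, 201 and 180 CPM in Trp53_KO and at 144, 160 and 167 CPM in Trp53_WT, a log2 fold change of 0.25 (SE 0.08; edgeR, adjusted p = 0.0337). These calls were sensitive to single libraries: without Trp53_WT replicate 2 or Trp53_KO replicate 1, 0 of the 8 were called, and without Trp53_KO replicate 2 or 3, 1 was. Without Trp53_WT replicate 1, 5 were (62.5%, against 17.4% higher of all genes in that fit). Their adjusted p reached 0.068 for Polr2d, 0.111 for Polr2g, 0.076 for Polr2i and 0.117 for Polr2m over all alternatives.

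Polr2a, the largest subunit of Pol II, whose C-terminal repeats are phosphorylated during transcription, was decided by a single library. Its counts were 1348, 1126 and 1827 in Trp53_KO and 5503, 1203 and 1102 in Trp53_WT. In CPM these were 68.7, 68.0 and 97.2 in Trp53_KO, against 371.5, 59.5 and 59.1 in Trp53_WT. Trp53_WT replicate 1 was thus 6.27 times the mean of the other Trp53_WT libraries. With all libraries the log2 fold change was -1.06 (SE 0.62; edgeR, adjusted p = 0.23). Without that library it was 0.39 (SE 0.12; adjusted p = 0.0141), the opposite direction. Polr2a lies 142.1 kb from Trp53 on chromosome 11 (69733997 to 69758637, minus strand, GRCm38).

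**Figure D3:**
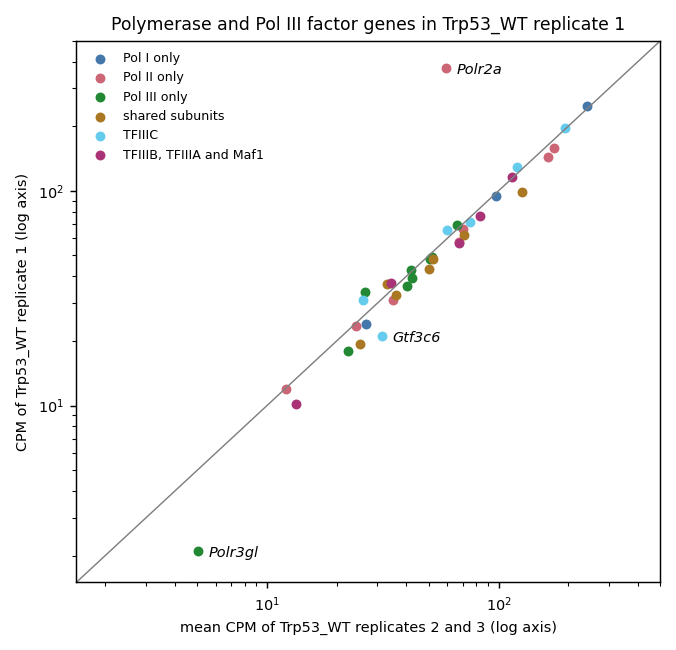
CPM of the polymerase and Pol III factor genes described in Trp53_WT replicate 1 (vertical, log axis) against its mean in Trp53_WT replicates 2 and 3 (horizontal, log axis), coloured by the enzyme or factor; the line marks equal values. Polr2a lies above the line at 6.27 times, Polr3gl below it at 0.417 times and Gtf3c6 at 0.671 times the mean of the other Trp53_WT libraries.

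The summed Pol II subunits also turned on that library. The sum was 665.2, 695.5 and 699.1 CPM in Trp53_KO and 865, 604.5 and 605.9 CPM in Trp53_WT. With Polr2a left out it was 596.4, 627.5 and 601.9 CPM in Trp53_KO and 493.5, 545 and 546.8 CPM in Trp53_WT, so that the groups no longer overlapped. Summed Pol III subunits were at 438, 440.2 and 439.2 CPM in Trp53_KO and at 380.7, 391.1 and 391.5 CPM in Trp53_WT, and summed Pol I subunits at 385.9, 384.7 and 394.7 CPM in Trp53_KO and at 366.7, 371.8 and 357.5 CPM in Trp53_WT. For both of these enzymes every Trp53_KO sum lay above every Trp53_WT sum. The sums cover only subunits selected by symbol, so subunits under other symbols, such as Znrd1 of Pol I and Crcp of Pol III, are not in them. Most of the Pol I sum was Polr1a.

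Of the 3 Pol I-only subunits selected by symbol, Polr1e rose (33.3%, against 14.1% of all tested genes), and Polr1a and Polr1b did not pass the test. Polr1e, a subunit related to TFIIE and TFIIF that aids initiation, lies on chromosome 4 (45018583 to 45036565, plus strand). It was at 33.8, 35.0 and 32.1 CPM in Trp53_KO and at 24.0, 26.9 and 26.9 CPM in Trp53_WT. Its change on the log2 scale was 0.37 (SE 0.08; edgeR, adjusted p = 0.0070), and 0.32 without Trp53_WT replicate 1. Polr1a, the largest subunit of Pol I, was at 246, 244 and 256 CPM in Trp53_KO and at 248, 247 and 234 CPM in Trp53_WT. These groups overlapped, with a log2 fold change of 0.03 (95% interval -0.08 to 0.15; edgeR, adjusted p = 0.73).

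Of the 7 subunits that more than 1 enzyme uses, Polr2h and Polr2k rose (28.6%, against 14.1% of all tested genes). All 7 had a log2 fold change above 0, where 6508 of all 13651 tested genes did. The 7 values ranged from 0.10 to 0.41 with a median of 0.23. Leaving out Trp53_WT replicate 1, they ranged from 0.04 to 0.37, with a median of 0.18. Polr2h, present in all of the enzymes, lies on chromosome 16 (20717665 to 20722267, plus strand). It was at 45.5, 46.2 and 47.8 CPM in Trp53_KO and at 32.8, 34.3 and 37.8 CPM in Trp53_WT. On the log2 scale the difference was 0.41 (SE 0.08; edgeR, adjusted p = 0.0036), and 0.37 without Trp53_WT replicate 1. Polr2k, a small zinc-binding subunit of all the enzymes, was at 29.4, 31.2 and 28.9 CPM in Trp53_KO and at 19.4, 26.6 and 23.6 CPM in Trp53_WT. Its log2 fold change was 0.36 (SE 0.11; edgeR, adjusted p = 0.0384), and 0.24 (adjusted p = 0.037) without Trp53_WT replicate 1, its lowest library. Without Trp53_KO replicate 1 or 3, Polr2h was the shared subunit still called, and Polr2k was also lost without Trp53_WT replicate 3 or Trp53_KO replicate 2, with adjusted p up to 0.12. Polr1c, shared by Pol I and Pol III, had a log2 fold change of 0.23 (edgeR, adjusted p = 0.052).

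**Figure D4:**
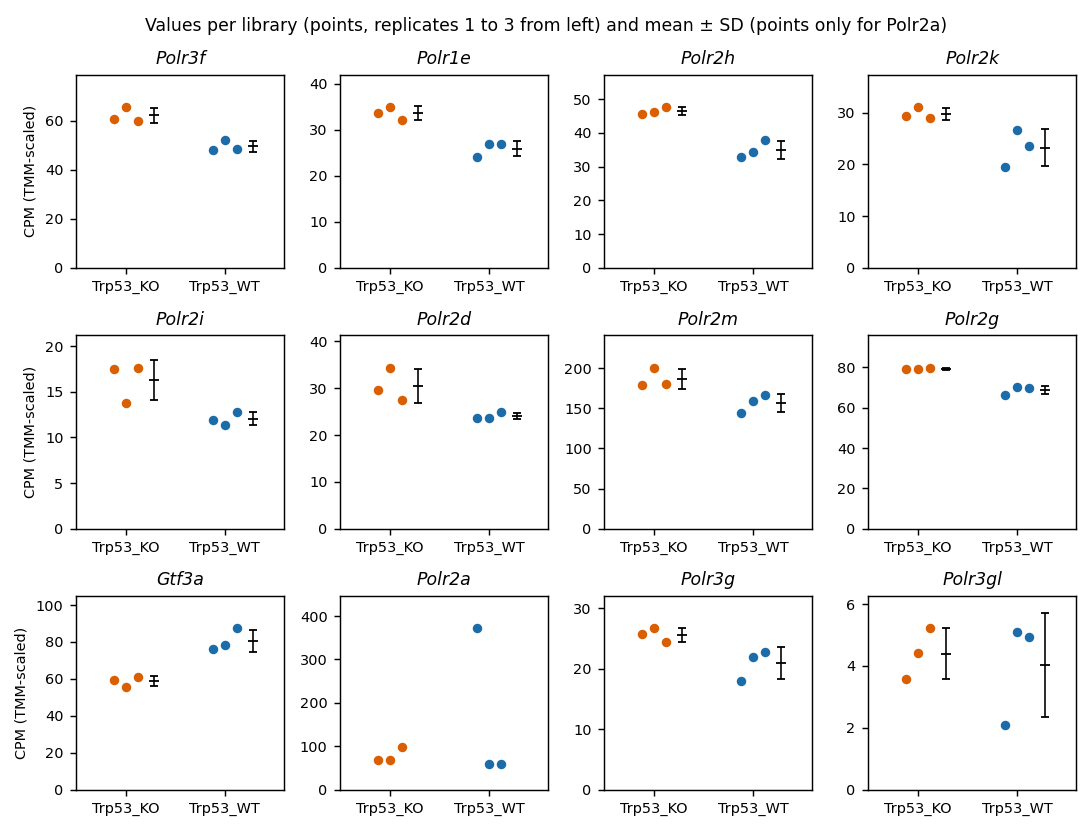
CPM per library for called genes and for Polr2a, Polr3g and Polr3gl, with Trp53_KO left of Trp53_WT, replicates 1 to 3 from left, and the mean ± SD beside them (points only for Polr2a). Gtf3a is lower in every Trp53_KO library than in any Trp53_WT library, and the single high Polr2a point of 371.5 CPM is Trp53_WT replicate 1.

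Among the genes of TFIIIA, TFIIIB and TFIIIC and Maf1, Gtf3a fell and no other passed the test. That is 20% lower of the 5 genes for TFIIIB, TFIIIA and Maf1, near the 16.1% of all tested genes. Gtf3a, on chromosome 5 (146948657 to 146955614, plus strand), was at 59.4, 55.6 and 61.1 CPM in Trp53_KO and at 76.1, 78.2 and 87.3 CPM in Trp53_WT. Averages of 58.7 ± 2.8 CPM in Trp53_KO and 80.5 ± 6.0 CPM in Trp53_WT (SD, n = 3 each) came from groups without overlap. The log2 fold change was -0.46 (SE 0.08; edgeR, adjusted p = 0.0019), and -0.50 (adjusted p = 4.2e-05) without Trp53_WT replicate 1. Exons of Mtif3, on the opposite strand, overlap 59.1% of the exon bases of Gtf3a. Mtif3 averaged 19.0 CPM in Trp53_KO and 21.4 CPM in Trp53_WT, with a log2 fold change of -0.17 (edgeR, adjusted p = 0.19). With Trp53_WT replicate 1 left out, Mtif3 fell by 0.24 (edgeR, adjusted p = 0.042), the same direction as Gtf3a. The library kit keeps strand, but whether counting used strand is not given in the sources used here.

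None of the TFIIIB genes passed the test in edgeR or DESeq2. In edgeR, 14.1% of all tested genes were higher and 16.1% lower. Of the TFIIIB genes 1, Bdp1, had an unadjusted p under 0.05 in edgeR. The share of all genes at that threshold was not computed. Brf1, which serves tRNA and 5S genes, was at 31.5, 30.6 and 33.0 CPM in Trp53_KO and at 37.2, 35.2 and 33.1 CPM in Trp53_WT, a log2 fold change of -0.15 (edgeR, adjusted p = 0.19). Brf2, which serves promoters of the U6 type, was at 15.5, 12.5 and 15.4 CPM in Trp53_KO and at 10.1, 13.5 and 13.2 CPM in Trp53_WT, a log2 fold change of 0.23 (edgeR, adjusted p = 0.24), and 0.12 without Trp53_WT replicate 1. Bdp1, common to both forms, was at 101.4, 109.4 and 101.3 CPM in Trp53_KO and at 116.4, 116.2 and 112.9 CPM in Trp53_WT, a log2 fold change of -0.15 (edgeR, adjusted p = 0.12). The Brf1 and Bdp1 groups did not overlap, and those of Brf2 did.

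Maf1 was at 69.8, 64.1 and 64.8 CPM in Trp53_KO and at 57.0, 64.6 and 70.5 CPM in Trp53_WT. The groups overlapped, with a log2 fold change of 0.05 (95% interval -0.13 to 0.22; edgeR, adjusted p = 0.73), and -0.029 without Trp53_WT replicate 1. The 6 TFIIIC genes had log2 fold changes between -0.18 (Gtf3c5) and 0.19 (Gtf3c6), with a median of 0.008. Without Trp53_WT replicate 1 they lay between -0.10 (Gtf3c5) and 0.11 (Gtf3c4), and Gtf3c6 was at 0.03. By edgeR 0 of the 6 were called, against 14.1% higher and 16.1% lower of all tested genes. Without Trp53_WT replicate 1 the count was also 0, against 17.4% higher and 18.5% lower of all genes in that fit. By DESeq2 0 were called, where 1891 of 16302 genes were higher and 1878 lower. At an unadjusted p under 0.05 in edgeR the count was again 0, and the share of all genes at that threshold was not computed. Summed TFIIIC levels were 527.1, 522 and 510.2 CPM in Trp53_KO and 515.2, 502.6 and 510.2 CPM in Trp53_WT, which overlapped.

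Other reads can reach some of these genes. Polr2i shares 26.8% of its exon bases with Tbcb and Polr2h 5.4% with Clcn2, each on the opposite strand. Tbcb had a log2 fold change of -0.03, but Clcn2 rose by 0.70 (edgeR, adjusted p = 2.0e-04), and the 82 shared bases leave its reads and those of Polr2h uncertain if strand was not used. Near-identical copies, with at least 95% identity over 300 bases or more, exist for Polr2h (Gm7511) and Polr2k (Gm46136), so their counts are uncertain where reads were split or dropped. Across the 39 genes the log2 fold change was lower for longer exon lengths (Pearson r = -0.394, Spearman rho = -0.482), less so without Trp53_WT replicate 1 (r = -0.211, rho = -0.242). The deviation of Trp53_WT replicate 1 from the other Trp53_WT libraries was itself higher for longer exon lengths (r = 0.322, rho = 0.512). All points share the same libraries, and exon length was not tested as a part of the result.

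Promoter windows of 300 bases around annotated transcript starts (RefSeq, GRCm38.p6) were found for 30 of the 39 genes, 33 windows in all. The ETS motif CCGGAAG, searched on both strands, was in 13 of them (39.4%), against 8.86% of 32851 windows of 27025 genes. The E-box CACGTG was in 6 (18.2%, against 7.15%), CCAAT in 9 (27.3%, against 37.4%), TATAAA in 3 (9.09%, against 13.6%), the NRF1 motif in 0 (against 0.971%) and the decamer of the p53 response element in 0 (against 8.36%). A match is a description of the letters in the window. The windows of Gtf3a, which fell, and of Polr1e, Polr2h and Polr3f, which rose, are shown for comparison, on the plus strand with the motif in capitals: the ETS motif in Gtf3a (chr5:146948407-146948706), the same motif read on the minus strand in Polr1e (chr4:45018359-45018658), and the E-box in Polr2h (chr16:20717576-20717875). The window of Polr3f (chr2:144527495-144527794) and another window of Polr2h, not shown, held none of the motifs searched.
Gtf3a: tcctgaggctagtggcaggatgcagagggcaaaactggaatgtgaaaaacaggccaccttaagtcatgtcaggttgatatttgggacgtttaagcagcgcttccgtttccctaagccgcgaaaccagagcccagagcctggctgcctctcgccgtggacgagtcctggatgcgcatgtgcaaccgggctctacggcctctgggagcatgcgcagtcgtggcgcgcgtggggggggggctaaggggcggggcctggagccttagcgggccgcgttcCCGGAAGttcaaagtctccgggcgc
Polr1e: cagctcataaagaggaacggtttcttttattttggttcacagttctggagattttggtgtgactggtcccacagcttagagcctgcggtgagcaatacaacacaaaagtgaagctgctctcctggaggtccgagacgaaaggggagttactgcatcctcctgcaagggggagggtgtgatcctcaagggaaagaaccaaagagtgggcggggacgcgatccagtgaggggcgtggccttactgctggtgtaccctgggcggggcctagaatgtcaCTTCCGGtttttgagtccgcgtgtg
Polr2h: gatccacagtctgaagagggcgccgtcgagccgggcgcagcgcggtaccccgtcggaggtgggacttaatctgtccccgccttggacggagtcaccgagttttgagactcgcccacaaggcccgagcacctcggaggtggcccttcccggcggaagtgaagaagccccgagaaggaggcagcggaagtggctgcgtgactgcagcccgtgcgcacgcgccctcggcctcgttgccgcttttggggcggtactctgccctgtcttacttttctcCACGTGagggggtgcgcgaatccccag
Polr3f: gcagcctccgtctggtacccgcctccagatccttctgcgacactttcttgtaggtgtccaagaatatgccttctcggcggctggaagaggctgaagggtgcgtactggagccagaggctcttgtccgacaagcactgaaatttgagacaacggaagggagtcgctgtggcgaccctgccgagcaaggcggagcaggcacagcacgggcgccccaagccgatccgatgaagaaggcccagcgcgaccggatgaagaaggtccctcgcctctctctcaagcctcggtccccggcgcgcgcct
The ETS motif was thus present both in the gene that fell and in a gene that rose.

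Genes of the surrounding machinery were read against the 14.1% higher and 16.1% lower of all tested genes. Of 10 Pol I initiation factors and subunits under other symbols, 2 rose (20%) and 1 fell (10%), with a median log2 fold change of 0.04. Znrd1, a small Pol I subunit, averaged 28.7 ± 3.3 CPM in Trp53_KO and 21.4 ± 1.1 CPM in Trp53_WT (log2 fold change 0.43; edgeR, adjusted p = 0.0093). Taf1d, of the Pol I initiation factor SL1, rose by 0.39 on the log2 scale (edgeR, adjusted p = 0.0043), while Taf1b of the same factor averaged 7.001 ± 0.95 CPM in Trp53_KO and 10.6 ± 0.6 CPM in Trp53_WT (log2 fold change -0.61; edgeR, adjusted p = 0.0049). Both are components of a single complex and moved in opposite directions.

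Of 18 general initiation factors of Pol II, 2 rose (11.1%) and 1 fell (5.56%), both shares below those of all tested genes (14.1% and 16.1%), with a median log2 fold change of 0.13. Gtf2f2, the small subunit of TFIIF, averaged 45.8 ± 3.0 CPM in Trp53_KO and 27.5 ± 2.0 CPM in Trp53_WT (log2 fold change 0.73; edgeR, adjusted p = 1.7e-04). Gtf2e1, the large subunit of TFIIE, rose by 0.53 (edgeR, adjusted p = 9.1e-04), and Gtf2a1 of TFIIA fell by 0.25 (edgeR, adjusted p = 0.045). Of 10 genes for SNAPc and other Pol III partners, 1 rose and 1 fell (10% each). Crcp, a Pol III subunit under another symbol, was at 29.8, 28.9 and 30.3 CPM in Trp53_KO and at 25.04, 23.7 and 26.4 CPM in Trp53_WT (log2 fold change 0.24; edgeR, adjusted p = 0.041). Snapc1, a subunit of the complex that binds U6-type promoters, fell by 0.37 (edgeR, adjusted p = 0.0072).

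Of 12 upstream regulators of Pol III, 2 rose and 2 fell (16.7% each), close to the 14.1% and 16.1% of all tested genes, with a median log2 fold change of -0.08. Mtor, the growth kinase that keeps Maf1 inactive, rose by 0.53 (edgeR, adjusted p = 0.0021), and so did Tsc2, which holds mTOR complex 1 back, by 0.39 (edgeR, adjusted p = 0.0074). The pocket proteins Rbl2 and Rbl1 fell by 0.37 and 0.34 (edgeR, adjusted p = 0.0049 and 0.0076). Myc, an activator of Pol III, averaged 130 ± 9.2 CPM in Trp53_KO and 149 ± 16 CPM in Trp53_WT, and its log2 fold change of -0.20 did not pass the test (edgeR, adjusted p = 0.125); without Trp53_WT replicate 1 it was -0.11.

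Among products of Pol III in the gene table, 12 of the 13 listed were present and 9 were tested. Of these 9, 1 rose (11.1%, near the 14.1% of all tested genes) and 0 fell (against 16.1%). Their median log2 fold change was 0.02. Rn7sk, the 7SK RNA that holds back the elongation factor P-TEFb, averaged 689 ± 37 CPM in Trp53_KO and 646 ± 64 CPM in Trp53_WT. Its log2 fold change was 0.09 (edgeR, adjusted p = 0.43), and 0.17 (adjusted p = 0.048) without Trp53_WT replicate 1. Rmrp and Rpph1, the RNAs of the RNases MRP and P, both had a log2 fold change of -0.22 (edgeR, adjusted p = 0.35 and 0.29). Without Trp53_WT replicate 1, their highest library, Rmrp was at -0.0085 and Rpph1 at -0.035. Short RNAs such as tRNA and 5S are poorly represented in libraries of this kind; the 181 rows of 5S genes and copies held 48, 32 and 89 counts in Trp53_KO and 37, 37 and 42 counts in Trp53_WT in all.

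The product that rose was Bc1, a rodent Pol III RNA derived from a tRNA and known from neurons, where it is held to repress translation. It was at 3.67, 3.501 and 3.30 CPM in Trp53_KO and at 0.878, 0.692 and 0.590 CPM in Trp53_WT, on 72, 58 and 62 counts in Trp53_KO and 13, 14 and 11 counts in Trp53_WT. Every Trp53_KO library was above every Trp53_WT library. This corresponded to a log2 fold change of 2.29 (SE 0.20; edgeR, adjusted p = 2.3e-05), and 2.43 without Trp53_WT replicate 1. In the authors' deposited table of repeats the Bc1 locus had a log2 fold change of 2.33 (FDR 3.61e-15) for reads along the RNA and 0.006 for the opposite direction. The sequence of Bc1 (chr7:144914470-144914637, plus strand, GRCm38, GENCODE transcript) is shown because it carries the largest change among these products, with the A box of its internal promoter in capitals.
Bc1: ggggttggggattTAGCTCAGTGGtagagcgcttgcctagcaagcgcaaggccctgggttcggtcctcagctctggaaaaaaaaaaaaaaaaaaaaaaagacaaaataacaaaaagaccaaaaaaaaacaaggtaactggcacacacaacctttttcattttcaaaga
By the usual consensus of each box, an A box was found in the first 100 bases of 4.95% of 139316 annotated transcripts and a B box in 0.118%. Bc1 matched the A box and not the B box. No other Pol III product searched matched the B box consensus either. The search allowed no mismatch, so the missing match does not show that Bc1 lacks this box.

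The repeats that Pol III can transcribe were read from the authors' deposited table, which gives 1 comparison and no values per library, so that no library could be left out. Of all 773731 rows, each a repeat locus in 1 read direction, 0.388% were higher and 0.284% lower at an FDR under 0.05. Of 115413 B2 rows, 744 (0.645%) were higher and 192 (0.166%) lower in Trp53_KO in the authors' deposited table. For B1, of the Alu family, 214 of 154106 rows (0.139%) were higher and 282 (0.183%) lower, and for B4, 182 of 88957 (0.205%) were higher and 196 (0.220%) lower. ID elements, which share their origin with Bc1, had 29 rows higher and 29 lower of 15693 (0.185% each). In the authors' deposited table, among 1104 tRNA rows, 1 was higher and 3 were lower, and no row of 4.5S, 7SL, 7SK or 5S RNA passed in either direction. Of 257 U6 rows, 0 were higher and 2 (0.778%) lower, at an FDR under 0.01 as well. BC1 rows were higher in 5 and lower in 4 of 1382.

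**Figure D5:**
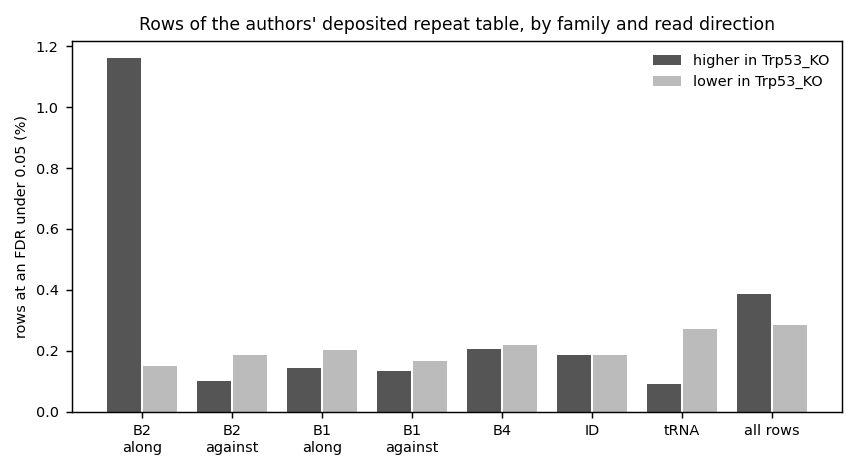
Share of rows higher (dark bars) and lower (light bars) in Trp53_KO at an FDR under 0.05 in the authors' deposited table, in percent, for B2 and B1 by read direction, for B4, ID and tRNA, and for all rows. B2 read along the element reaches 1.16% higher, against 0.0994% for B2 read against it and 0.388% of all rows.

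The B2 rows were divided by read direction. Along the element, 688 of 59103 rows (1.16%) were higher and 88 (0.149%) lower, whereas against it 56 of 56310 (0.0994%) were higher and 104 (0.185%) lower. Of rows of all families, 0.578% along the element and 0.229% against it were higher. For B1, 0.144% of rows along the element and 0.134% against it were higher. Between genes, 317 of 17833 B2 rows (1.78%) were higher and 30 (0.168%) lower, where all rows between genes were at 0.850% higher and 0.401% lower. In introns, 393 of 89736 B2 rows (0.438%) were higher and 127 (0.142%) lower, against 0.238% and 0.203% of all intron rows. In 3' untranslated regions, 26 of 4864 B2 rows were higher and 26 lower (0.535% each), against 1.05% and 0.872% of all rows there. Rows are not replicates, and RNA that Pol III made and RNA read through from a neighbouring Pol II gene cannot be told apart in these counts.

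Within the polymerase genes themselves, 1608 repeat rows lay in 36 of the 39 genes, of which 1 was higher (0.0622%) and 5 lower (0.311%) in the authors' deposited table. All 6 were read against the gene, and 0 of the 1477 rows along the gene passed. The 5 lower rows lay in introns of Polr2b, with values between -0.87 and -1.10, and 395 to 2733 bases past the end of the neighbouring Igfbp7 in its own direction. Igfbp7 averaged 225 ± 10 CPM in Trp53_KO and 339 ± 23 CPM in Trp53_WT (log2 fold change -0.59; edgeR, adjusted p = 1.5e-04). The higher row was a B2 copy in an intron of Polr2f, read along the element, at 0.90 (FDR 0.0451).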

How the data were processed

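RNA of 6 ID8 libraries was freed of DNA with DNase I and turned into total RNA libraries with a stranded kit, per the labels' protocols. The submitters' processing notes name STAR, featureCounts, edgeR and mm10; for versions, settings and annotation, the sources used here have nothing. Genes come as raw, whole-number counts by symbol, as the authors deposited them. Repeats come as the authors' deposited comparison: per locus and read direction, a log2 fold change and an FDR, that is an adjusted p-value. That the base is 2 was checked on 779 rows inside genes, whose deposited value was a median 1.08 times the log2 fold change computed here for the gene. The row suffix was taken to be the read direction, since it equalled the gene's strand for 88% of 38905 rows.

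In R 4.3.3 with edgeR 4.0.16, filterByExpr kept 13651 genes, TMM scaled the libraries, and a quasi-likelihood model of genotype alone used all 6 libraries, with Benjamini-Hochberg adjustment over all genes tested and a threshold of 0.05. The biological coefficient of variation was 9.75%. The SE of a log2 fold change is its size over the root of the F statistic. The nominal 95% intervals are 1.96 times that SE to each side. This normal multiple is smaller than the F test implies with 6 libraries, so the intervals are somewhat too narrow. CPM values are TMM-scaled, and library deviations were taken on log2(CPM + 1). No pair of replicates agreed within sampling noise. The chi-square per degree of freedom was 29.5 and 28.8 for the pairs with Trp53_WT replicate 1. It was 4.55 to 9.42 within Trp53_KO and 2.09 for Trp53_WT replicates 2 and 3. All libraries were kept in the main fit, and results are also given without Trp53_WT replicate 1. Positions and exon lengths follow GENCODE M21 (GRCm38, equal to mm10). The Polr3g to Polr3gl ratio used counts plus 0.5.

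The genes and lists were chosen with earlier results of these data known. Of the 39 genes, 1 is counted in the totals but not reported here. Values per library are given for every other called gene and for Polr1a, Polr2a, Polr3a, Polr3g, Polr3gl, Brf1, Brf2, Bdp1, Gtf3a and Maf1. Of every other list of transcription genes or Pol III products up to 4 with the lowest adjusted p under 0.05 are named, with Trp53 and Myc. Lists of cell type markers are given as counts and summed levels, with the range of fold changes for the epithelial list. Rn7sk, Rmrp, Rpph1, Igfbp7 and genes overlapping on the opposite strand were added after their values were seen. Alternatives were RLE and upper-quartile scaling, 2 other filters, a block for the replicate number, DESeq2 1.42.0, limma-voom (limma 3.58.1), a threshold of 0.01, and each library left out.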

Additional observations from a re-analysis of the deposited data

How the results depend on the processing

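Polr3f, Polr1e, Polr2h and Gtf3a kept their call and direction under all 14 alternatives, with highest adjusted p of 0.042, 0.033, 0.018 and 0.0141. Under the replicate block 9 of the 10 called genes remained and Polr2g did not, with a log2 fold change of 0.21 (adjusted p 0.075); the replicate numbers did not pair the libraries, since the correlations of same-numbered libraries were -0.049, 0.130 and -0.141. Polr2g was also lost with DESeq2 (adjusted p 0.054). When every gene with at least 1 count was kept, 2 members fell and 4 shared subunits were called. Of all 22583 genes in that fit, 2339 were higher and 2447 lower. The second member lower was Polr2a, at -1.02 (edgeR, adjusted p 2.07e-04), which turned to 0.39 without Trp53_WT replicate 1, the cause not tested. At a threshold of 0.01, 2578 genes were called, 1199 higher and 1379 lower, and 4 members rose, with 0 of Pol II only and 1 shared subunit called. With each library left out, between 4 and 12 members rose, and 5 to 13 members were called in all. Called were 0 to 5 subunits of Pol II only and 1 to 3 shared subunits. The 4 came without Trp53_KO replicate 1, where 1388 of 13846 genes were higher. The 12 came without Trp53_WT replicate 1, where 2418 of 13894 genes were higher. Fewer libraries entered each of these fits. Maf1 ranged between -0.029 and 0.13, Polr2a between -1.44 and 0.39, and Polr3gl between -0.19 and 0.29 on the log2 scale; Polr3gl also turned, to -0.05, without Trp53_KO replicate 3. The Polr3g to Polr3gl difference was 0.40 without Trp53_WT replicate 1, -0.093 without replicate 2, -0.043 without replicate 3 and -0.059 without Trp53_KO replicate 1. Scaling moved the median of all genes by less than 0.1, and no member changed sign with RLE or upper-quartile factors. At an FDR under 0.01 in the authors' deposited table, 0.228% of all 773731 rows were higher and 0.174% lower. Of B2 rows, 376 (0.326%) were higher and 135 (0.117%) lower. Rows higher were 108 (0.0701%) for B1, 92 (0.103%) for B4 and 16 (0.102%) for ID. Rows lower were 171 (0.111%) for B1, 123 (0.138%) for B4 and 16 (0.102%) for ID. For tRNA, 0 rows were higher and 1 (0.0906%) lower, and for BC1, 3 (0.217%) were higher and 2 (0.145%) lower. Polr3gl, at 2.09 to 5.21 CPM, and Bc1 rest on the fewest counts.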
